A study of Homo sapiens with 6 samples.

Results

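NRF2, KEAP1 and 7 genes of the antioxidant response that they control were followed in BE(2)-C cells treated with BIX01294. The 9 genes (NFE2L2, KEAP1, SQSTM1, NQO1, SRXN1, TXNRD1, TXN, HMOX1 and OSGIN1) were taken by name from 18404 genes tested. They were chosen with earlier results of these data known, and each had 1 row with a single gene symbol. BE(2)-C is an established human neuroblastoma cell line with amplified MYCN, and BIX01294 is a compound that blocks the enzymes encoded by EHMT2 and EHMT1, which methylate lysine 9 of histone H3. RNA from 3 samples given 5 µM BIX01294 and 3 given 0.05% DMSO, each for 24 h in medium with dialyzed serum, was hybridised to Affymetrix arrays, 1 array per sample. Both groups are the same line, and the labels give no DMSO content for the treated cells. The comparison addresses which transcripts differ after the inhibitor, and values are log2 expression values of a gene's row, so that a difference of 1 is a doubling.

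NRF2, encoded by NFE2L2, is a transcription factor that binds antioxidant response elements together with small MAF proteins. KEAP1 holds NRF2 in the cytoplasm and presents it to a CUL3 ubiquitin ligase, so that NRF2 is degraded until oxidants or electrophiles modify KEAP1. The autophagy receptor p62, encoded by SQSTM1, can bind KEAP1 and release NRF2, and SQSTM1 is itself a target of NRF2. The regulation therefore acts largely on the NRF2 protein, which the arrays do not measure.

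Transcripts of 6 of the 9 genes rose after BIX01294, 1 fell and 2 did not pass the test. NQO1 and SQSTM1 roughly doubled, SRXN1, KEAP1, TXN and TXNRD1 rose by less, and NFE2L2, the gene of the factor itself, fell. HMOX1 and OSGIN1, which are also targets of NRF2, did not pass. Over all genes 23.6% passed an adjusted p of 0.05 in limma, 12.9% higher and 10.7% lower in BIX01294. This balance moved with the scaling, from 2379 genes higher and 1970 lower to 2256 and 2282 under quantile normalization, and to 2762 and 1536 when arrays were median-centred. The median log2 change of the 9 genes was 0.37, against -0.01 for all genes tested. Among the 9, 7 lay above the median level of all genes. When only genes at or above that level were tested, 4749 of 9202 passed, and of the 7, 6 were higher and 1 lower. The 3 arrays of each treatment did not overlap in 7 of the 9 genes, as was the case for 40.1% of all genes. An exact permutation test over 6 arrays cannot give a two-sided p below 0.1, and it gave 0.1 for these 7 genes.

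**Figure D1:**
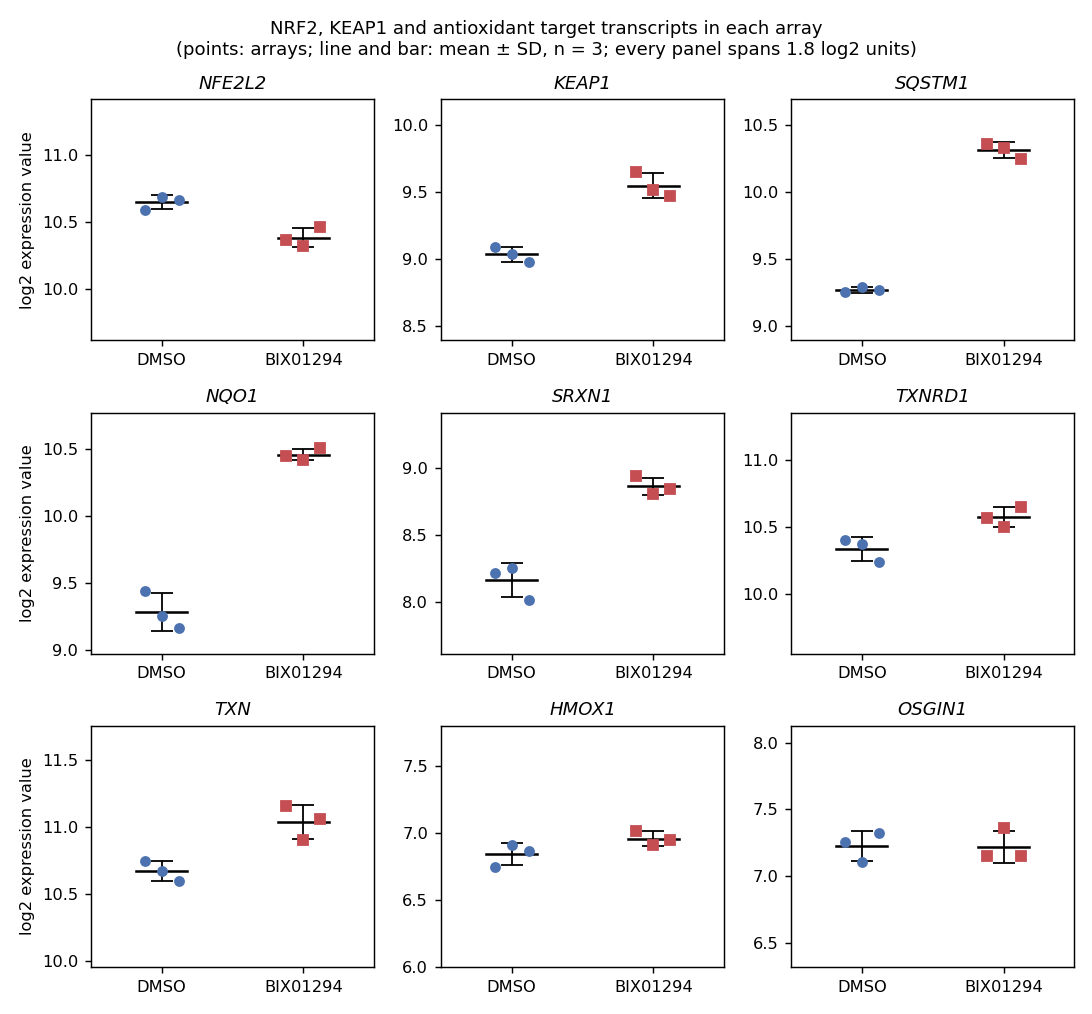
Log2 expression value of each of the 9 genes (vertical axes, every panel spanning the same range of log2 units) in the 3 DMSO arrays (blue circles) and the 3 BIX01294 arrays (red squares), with lines and bars for mean ± SD. The groups are far apart for SQSTM1 and NQO1, reversed for NFE2L2 and overlapping for HMOX1 and OSGIN1.

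Because an antioxidant response element is the site at which NRF2 acts, the core TGACNNNGC was searched on both strands of the 250 bases before each annotated start in the RefSeq promoter windows (GRCh38.p14), which hold 8 of the 9 genes. It was found in 3 of 13 windows of these genes (23.1%) and in 10.9% of all 35116 windows. By gene, 2 of the 8 held it (25%), against 13.2% of all genes with a window. The 3 windows belong to KEAP1, with a pair of matches, and TXNRD1, with a match before each of its 2 starts. These sequences are shown with 10 flanking bases on either side, in the direction of the gene, with the match in capitals. GCLM, the glutathione synthesis gene described below, is added since its match has the same 9 letters as the second of KEAP1. The KEAP1 matches begin 54 and 31 bases before the inner of its 2 starts and that of GCLM 34 bases before it.
KEAP1, chr19:10502807-10502835, minus strand: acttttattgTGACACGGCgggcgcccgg
KEAP1, chr19:10502784-10502812, minus strand: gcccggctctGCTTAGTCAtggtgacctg
GCLM, chr1:93909446-93909474, minus strand: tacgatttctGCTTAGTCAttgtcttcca
TXNRD1, chr12:104215670-104215698, plus strand: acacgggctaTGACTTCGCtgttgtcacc
TXNRD1, chr12:104286920-104286948, plus strand: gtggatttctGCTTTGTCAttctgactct

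The core was not found in the windows of NQO1, SRXN1, SQSTM1, TXN, NFE2L2 and OSGIN1. OSGIN1 held the heptamer TGACTCA, the AP-1 element with which the antioxidant response element shares letters, as did 4.2% of all windows. It began 97 bases before the start. The last 120 bases before the start of NQO1, which rose most, and of NFE2L2, which fell, are shown without capitals because neither motif was found in them. A match describes letters only, and no binding was measured. Sequence further upstream and the 50 bases after each start were not searched. A window without a match therefore does not show that the gene lacks an element.
OSGIN1, chr16:83953133-83953159, plus strand, TGACTCA in capitals: gggcccctgcTGACTCAcgcttatgaa
NQO1, chr16:69726561-69726680, minus strand: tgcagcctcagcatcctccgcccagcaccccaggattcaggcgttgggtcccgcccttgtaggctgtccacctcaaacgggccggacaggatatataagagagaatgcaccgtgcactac
NFE2L2, chr2:177264728-177264847, minus strand, the outer of its 2 starts: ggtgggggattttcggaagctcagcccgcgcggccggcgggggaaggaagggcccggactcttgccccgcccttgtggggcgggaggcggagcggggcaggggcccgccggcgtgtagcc

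NFE2L2 measured 10.59, 10.69 and 10.67 in the DMSO arrays and 10.37, 10.32 and 10.47 in the BIX01294 arrays. All 3 treated arrays lay below all 3 controls, with a gap of 0.13 between the groups. The log2 change was -0.26 ± 0.061 (SE), a 1.20-fold fall with a 95% interval of 1.09 to 1.32 and an adjusted p of 0.0159 in limma. In the table as a whole, 1576 genes (8.56%) fell at least as much. Leaving out DMSO replicate 2 ended the call (log2 change -0.24, adjusted p 0.0593), as did leaving out BIX01294 replicate 2 (-0.23, adjusted p 0.0536). Adjusted p-values ran from 0.0233 to 0.0593 over the 6 fits that left out 1 array.

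KEAP1, the substrate adaptor that targets NRF2 for degradation, has the pair of matches shown above before its inner start and none before its outer start. KEAP1 moved the opposite way to NFE2L2. It measured 9.09, 9.04 and 8.98 in DMSO and 9.65, 9.52 and 9.47 in BIX01294. Every treated array was above every control, with a gap of 0.38. The rise of 0.51 ± 0.066 (SE) on the log2 scale was 1.42-fold (95% interval 1.28 to 1.58, adjusted p 0.00124), and 402 genes (2.18%) rose at least as much. NFE2L2 and KEAP1 kept these opposite signs in all 16 alternative settings.

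SQSTM1, the gene of the KEAP1-binding receptor p62, was among the most changed of the 9. Its values were 9.25, 9.29 and 9.26 in DMSO and 10.36, 10.33 and 10.24 in BIX01294. The control arrays were tightly grouped (SD 0.02, n = 3) and the groups were 0.95 apart. The log2 change of 1.04 ± 0.055 (SE) was a 2.06-fold rise (95% interval 1.89 to 2.25, adjusted p 2.71e-05), exceeded or equalled in 40 genes (0.217%), SQSTM1 included.

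Among the enzymes, NQO1 rose most. It encodes a quinone reductase widely used as a readout of NRF2 activity. NQO1 measured 9.44, 9.25 and 9.17 in DMSO and 10.45, 10.42 and 10.51 in BIX01294. The treated arrays were close together (SD 0.04, n = 3) and the controls more spread (SD 0.14, n = 3), with 0.98 between the groups. The log2 change was 1.17 ± 0.077 (SE), 2.25-fold (95% interval 1.99 to 2.55, adjusted p 6.43e-05), and only 27 genes (0.147%), NQO1 included, rose as much. The intervals of NQO1 and SQSTM1 overlap, and the difference between their changes was not tested.

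SRXN1 encodes sulfiredoxin, which repairs over-oxidised peroxiredoxins. It measured 8.22, 8.26 and 8.02 in DMSO and 8.94, 8.81 and 8.84 in BIX01294. DMSO replicate 3 was the lowest array, and the groups were 0.55 apart. SRXN1 rose by 0.70 ± 0.076 (SE) on the log2 scale, 1.62-fold (95% interval 1.44 to 1.83, adjusted p 0.000593), and 153 genes (0.831%) rose at least as much.

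The thioredoxin pair rose less. TXN, thioredoxin, reduces disulfides in proteins and is itself reduced by the selenoenzyme TXNRD1 at the expense of NADPH. TXN measured 10.75, 10.67 and 10.59 in DMSO and 11.16, 10.90 and 11.06 in BIX01294. The treated arrays were all higher, by a gap of 0.16, and more spread than the controls. The log2 change was 0.37 ± 0.078 (SE), 1.29-fold (95% interval 1.14 to 1.46, adjusted p 0.0107), and 5.05% of genes rose as much.

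TXNRD1, which has a match to the element before both of its annotated starts, had the smallest change among the genes that passed. It measured 10.40, 10.37 and 10.23 in DMSO and 10.57, 10.50 and 10.65 in BIX01294. The groups were 0.10 apart, close to the spread within them. The log2 change of 0.24 ± 0.068 (SE) was 1.18-fold (95% interval 1.06 to 1.31, adjusted p 0.0372), and 11.6% of genes rose at least as much. The call was lost after quantile normalization (adjusted p 0.0559) and in 5 of the 6 fits that left out 1 array, all but that without BIX01294 replicate 2, with adjusted p-values of 0.0410 to 0.126. TXNRD1 has a single row in the table, and transcripts from its 2 starts were not told apart.

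HMOX1 encodes the inducible haem oxygenase, which breaks haem down to biliverdin, iron and carbon monoxide. It measured 6.75, 6.91 and 6.87 in DMSO and 7.02, 6.91 and 6.94 in BIX01294. BIX01294 replicate 2 lay inside the control range. The difference was 0.11 ± 0.064 (SE), with a 95% interval of -0.03 to 0.26 and an adjusted p of 0.255, so a rise as large as that of NQO1, SQSTM1 or SRXN1 lay outside this interval. OSGIN1, an oxidative stress-induced growth inhibitor, measured 7.25, 7.11 and 7.32 in DMSO and 7.15, 7.36 and 7.15 in BIX01294. These values were interleaved. The difference of -0.01 ± 0.082 (SE) had a 95% interval of -0.20 to 0.18 and an adjusted p of 0.969, and its sign turned with the scaling. HMOX1 and OSGIN1 were the dimmest of the 9, at percentiles 40.3 and 45.5 of the mean levels of all genes. The table has no detection call that would place them above background. The same limit holds for GCLM, GLRX and AKR1C3, which rose and are described below, at percentiles 42.9, 37.9 and 41.8.

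**Figure D2:**
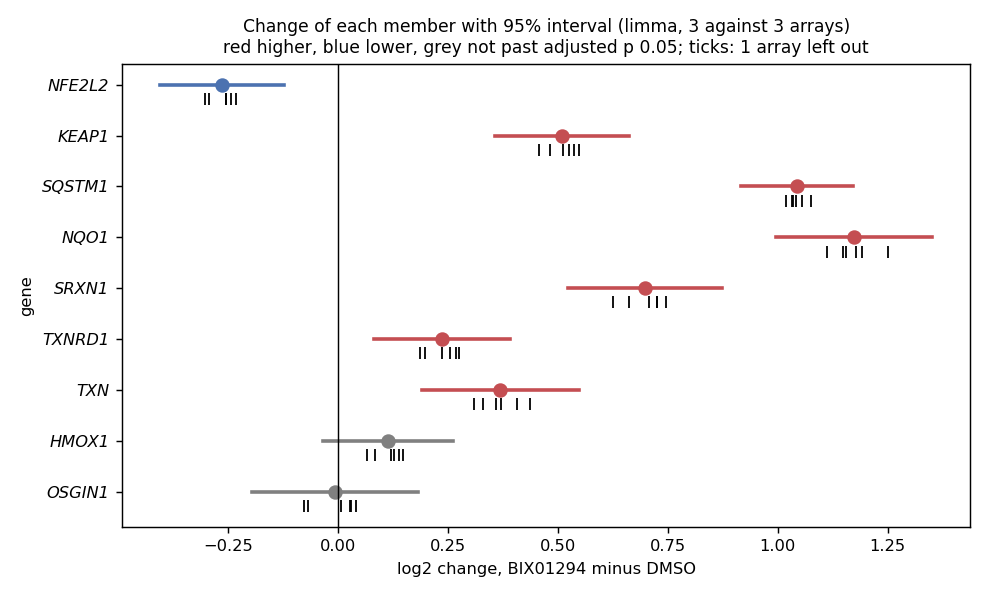
Log2 change of each gene, BIX01294 minus DMSO (horizontal axis), with the 95% interval from limma over 3 against 3 arrays; black ticks are the changes with 1 array left out. NFE2L2 lies left of 0, 6 genes lie right of it, and the intervals of HMOX1 and OSGIN1 span 0.

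**Figure D3:**
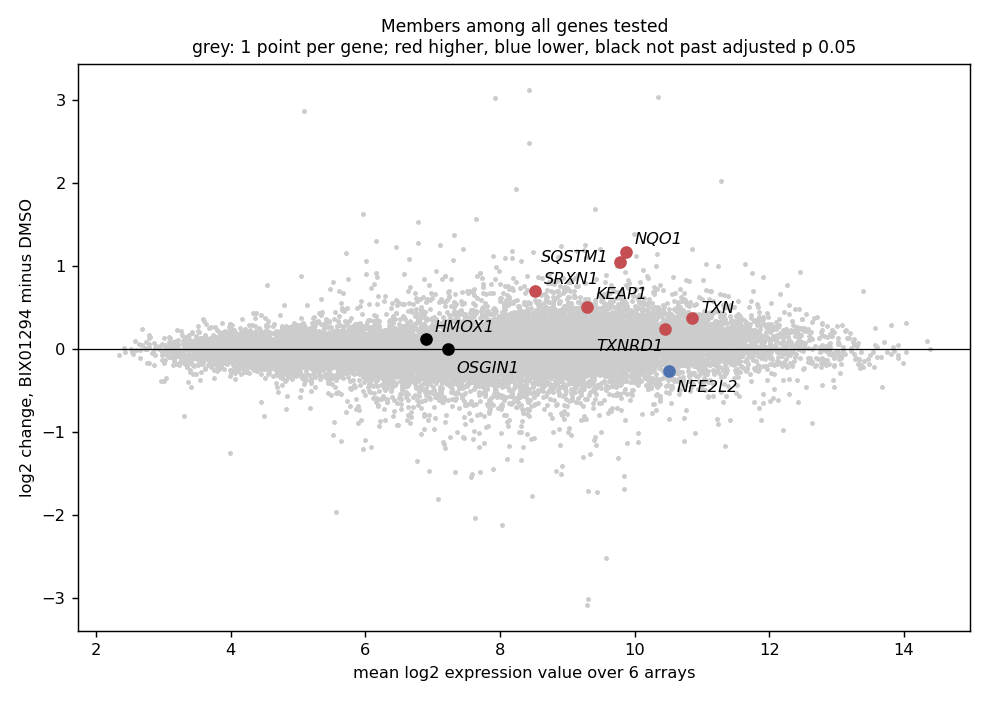
Mean log2 expression value over the 6 arrays (horizontal) against log2 change (vertical), with 1 grey point for each of 18404 genes and the 9 genes named. NQO1 and SQSTM1 lie near the upper edge of the cloud at their level, TXNRD1 and NFE2L2 within it.

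The wider pathway was described by 84 further genes in 9 role lists, of which 77 had a value. Of these, 24 rose (31.2%, against 12.9% of all genes), 8 fell (10.4%, against 10.7%) and 45 did not pass. The median log2 change of the 77 was 0.08. The lists were chosen with earlier results of these data known, so the shares describe them and test nothing. The 77 are brighter than most genes, and 57 lay above the median level. When only genes at or above it were tested, 28 of these 57 rose and 11 fell, against 2850 and 1899 of 9202 genes. Falls reached -3.09 and rises 0.94. The lists hold 5 to 17 measured genes each, so the counts given below for a list rest on few genes.

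**Figure D4:**
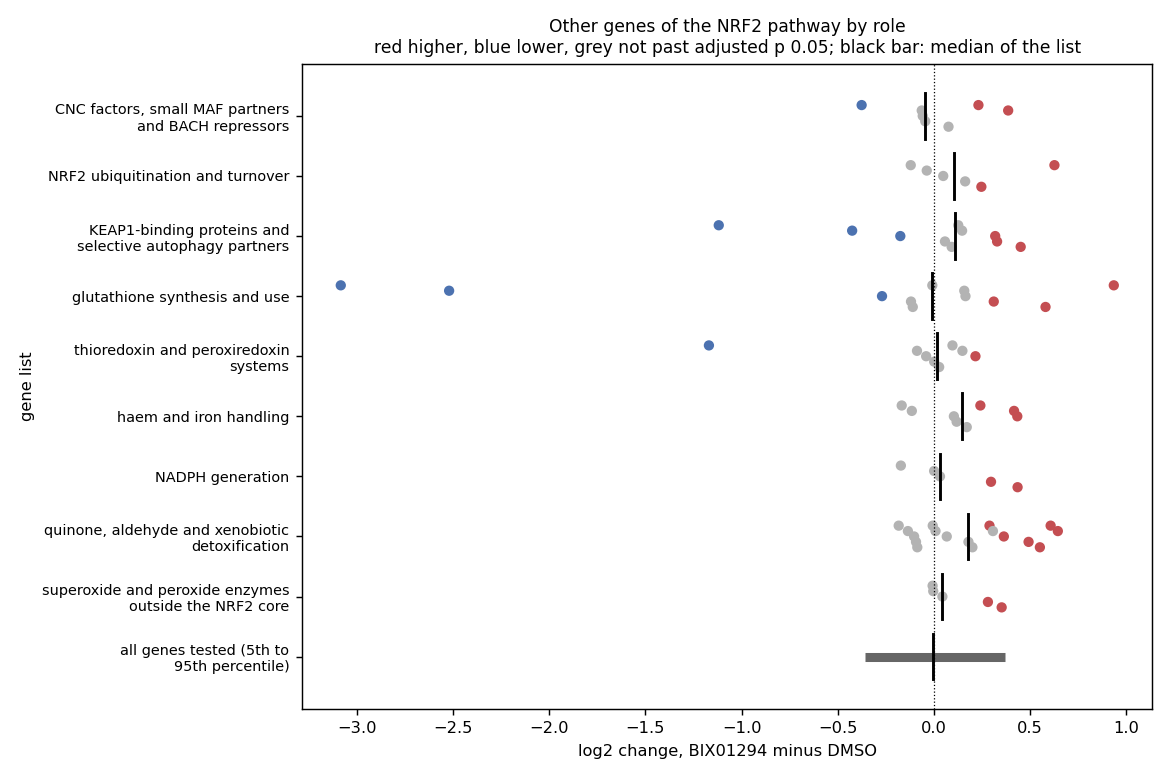
Log2 change, BIX01294 minus DMSO (horizontal axis), of 77 further pathway genes in 9 lists by role (rows), with the median of each list as a black bar and the 5th to 95th percentile of all genes in the bottom row. Turnover, haem, NADPH, detoxification and superoxide lists hold rises and no falls past the threshold, whereas the other lists hold both. Over all genes 12.9% rose and 10.7% fell, and lists this short could hold no fall at that share.

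Among the transcription factors related to NRF2 and their partners, 2 of 7 measured rose and 1 fell. These shares were 28.6% and 14.3%, against 12.9% and 10.7% of all genes. NFE2L1, an NRF2 relative that controls proteasome genes, fell by 0.38 on the log2 scale, like NFE2L2 itself (adjusted p 0.0027). MAFG, a small MAF partner of NRF2, rose by 0.39. Its other 2 rows differed by 0.34 and 0.17, and the last of these did not pass. BACH1, which represses HMOX1 by occupying the same elements, rose by 0.23 (adjusted p 0.0212), and that call was lost in 4 of the 6 fits that left out 1 array. It held when the array left out was replicate 2 of either group, and adjusted p-values otherwise reached 0.0790.

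Of 6 genes for the ubiquitination and turnover of NRF2, 2 rose (33.3%, against 12.9% of all genes) and none fell (against 10.7%). VCP, the segregase that extracts ubiquitinated proteins, rose 1.55-fold and CUL3, the scaffold of the KEAP1 ligase, 1.19-fold (adjusted p 0.0128). Among 10 genes of KEAP1-binding proteins and selective autophagy, 3 rose and 3 fell (30% each, against 12.9% and 10.7% of all genes). NBR1, a cargo receptor related to p62, fell 2.17-fold while SQSTM1 rose, from 10.61 ± 0.06 to 9.49 ± 0.05 (SD, n = 3 per group). GABARAPL1, which attaches cargo receptors to autophagosomes, fell 1.34-fold. TRIM16, a p62 partner, rose 1.37-fold and DPP3, a KEAP1-binding peptidase, 1.26-fold.

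Glutathione genes split in both directions, with 3 of 11 higher and 3 lower (27.3% each, against 12.9% and 10.7% of all genes). GCLM, the modifier subunit of glutamate-cysteine ligase, went from 6.59 ± 0.11 to 7.52 ± 0.06 (SD, n = 3 per group), a 1.92-fold rise, and the glutaredoxin gene GLRX rose by 0.58 on the log2 scale. SLC7A11, the cystine importer that NRF2 and ATF4 both activate, instead fell 5.74-fold, and CHAC1, which degrades glutathione and is an ATF4 target, 8.49-fold. SLC7A11 thus moved opposite to NQO1, SRXN1 and GCLM in the same arrays. Of 8 further thioredoxin and peroxiredoxin genes, 1 rose and 1 fell (12.5% each, against 12.9% and 10.7% of all genes). TXNIP, an inhibitor of thioredoxin, fell 2.25-fold, and PRDX1 rose 1.16-fold (adjusted p 0.0233). Leaving out any array but DMSO replicate 1 or BIX01294 replicate 2 ended the PRDX1 call, with adjusted p-values up to 0.0766.

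In haem and iron handling 3 of 8 rose (37.5%, against 12.9% of all genes) and none fell (against 10.7%). The porphyrin transporter ABCB6 rose 1.35-fold and HMOX2, the constitutive haem oxygenase, 1.34-fold, although HMOX1 did not pass. BLVRA, biliverdin reductase, rose 1.18-fold (adjusted p 0.0243), and among the 6 fits that left out 1 array this call held only without DMSO replicate 3 or BIX01294 replicate 2, with adjusted p-values up to 0.0883 in the others. In NADPH generation 2 of 5 rose (40%, against 12.9% of all genes) and none fell (against 10.7%). Malic enzyme ME1 rose 1.35-fold and PGD, of the pentose phosphate pathway, 1.23-fold.

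Of 17 detoxification genes 6 rose (35.3%, against 12.9% of all genes) and none fell (against 10.7%). Of the 6, MGST1 lay near the low end of the table, at 3.98 in DMSO and 4.34 in BIX01294. NQO2, a paralogue of NQO1, went from 9.14 ± 0.02 to 9.79 ± 0.08 (SD, n = 3 per group), a rise of 0.65 on the log2 scale, and carbonyl reductase CBR1 rose 1.47-fold. The aldo-keto reductases AKR1C3 and AKR1C1 rose 1.52-fold and 1.41-fold. They are close paralogues whose probes can share targets. A second row of AKR1C1 differed by -0.24 without passing, and averaging the 2 rows of AKR1C1 ended its call. Among 5 enzymes that remove superoxide and peroxide but are not core NRF2 targets, 2 rose (40%, against 12.9% of all genes). GPX3 rose 1.28-fold and SOD2 1.22-fold, and none of the 5 fell (against 10.7%).

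The element was also looked for in these genes. Windows were found for 63 of the 77, and 15 of the 63 held TGACNNNGC (23.8%, against 13.2% of all genes with a window). It was held by 7 of the 23 genes that rose, 1 of 7 that fell and 7 of 33 that did not pass. Among the risers with a match were GCLM, ME1, CBR1, ABCB6, PGD, VCP and GSTA4, a glutathione transferase named because of its match.

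Over the 6 arrays, the genes with the pattern most like that of NFE2L2, among 8965 genes above the median level, were TMEM69, ZNF506, ZNF417, USPL1 and ZNF419. Their Pearson r with NFE2L2 ran from 0.987 to 0.994, and 1.41% of the genes compared had an r above 0.95. For NQO1 the closest were POGK, MID1, DR1, MUL1 and ADAM12, with r of 0.998 to 0.9997, and 13.8% had an r above 0.95. These values describe 6 arrays that share the treatment difference. After quantile normalization 4 of the 5 genes closest to NFE2L2 and 2 of the 5 closest to NQO1 were again among the 5 closest. After median centring it was 3 of 5 for NFE2L2 and 3 of 5 for NQO1.

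Array medians lay between 6.94 and 7.01, and arrays of a group correlated at 0.994 to 0.996. Of 10 sympathoadrenal markers 8 had a value, all above the median level of genes, with MYCN at 13.54 ± 0.04 in DMSO and 13.46 ± 0.02 in BIX01294 (SD, n = 3 per group). Of these 8, 1 rose (ISL1) and 3 fell (PHOX2A, GATA3 and CHGA). These shares were 12.5% and 37.5%, against 12.9% and 10.7% of all genes. Of 9 measured mesenchymal or Schwann cell-like markers, VIM, CD44 and S100B rose (33.3%, against 12.9% of all genes). None fell (against 10.7%) and 6 did not pass. The median log2 change of that list was 0.06. VIM, CD44 and S100B rose by 0.82, 0.49 and 0.42, and SNAI2 differed by 0.21 without passing. FN1, COL1A1, COL1A2, PRRX1 and SOX10 lay between -0.03 and 0.06. The mean level of the list was 7.45 to 7.51 in the DMSO arrays and 7.67 to 7.76 in the BIX01294 arrays. Its part in the changes above was not tested. Of 5 myeloid markers CD68, a lysosomal protein, rose (20%, against 12.9% of all genes). PTPRC was at 3.80 in DMSO and 3.82 in BIX01294, near the low end of the table. The others were brighter than PTPRC and did not pass. In DMSO and BIX01294, CD14 was at 6.59 and 6.67, CSF1R at 6.34 and 6.30, and AIF1 at 4.84 and 4.75. In bulk RNA, fewer cells of a type and less RNA per cell cannot be told apart.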

How the data were processed

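RNA of 3 BIX01294 and 3 DMSO samples was measured on Affymetrix arrays. The authors deposited 1 value per row and array, which from the values is on a log2 scale; Partek is the only tool in the submitters' processing notes, and for background correction, normalization and summarization the step taken is not given in the sources used. A change common to most transcripts would be hidden if the arrays had been brought to a common scale.

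The platform annotation gave a single symbol for 19158 of 32321 rows, and symbols were updated through Entrez identifiers for 19128. The brightest row per gene was kept (18404 genes). The values were fitted with limma 3.58.1 in R 4.3.3 with treatment as the only term, and p-values were adjusted by Benjamini-Hochberg over all genes (threshold 0.05), with no filter. The fit was tested on simulated data. The arrays' number limits the precision.

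The 9 genes and the lists were chosen with earlier results of these data known. Genes named in each list are up to 4 with the greatest changes past the threshold, and the 5 most like NFE2L2 and NQO1. GSTA4, MGST1, TGACTCA, and the marker genes named were chosen after values or windows were seen. Both groups carry replicate numbers 1 to 3, with nothing in the labels to tie equal numbers together. A planned search of protein sequences was not made. The 16 alternatives covered scaling, filters on dim genes, several rows of a gene, the variance model, array weights, the replicate block, several-symbol rows, a minimum change and each array left out.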

Additional observations from a re-analysis of the deposited data

Results flagged for a closer look

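Rows that carry several gene symbols were left out of the comparison. Of 1388 such rows, 4 list any of the 9 genes or a gene of the pathway lists among their symbols. Of these 4 rows, 2 were higher in BIX01294 in a limma fit over 20546 rows with a symbol. One rose by 0.81 ± 0.057 (SE) on the log2 scale, from 9.37 ± 0.04 to 10.17 ± 0.06 (SD, n = 3 per group), and the other by 0.60 ± 0.074 (SE). The remaining pair differed by -0.14 and -0.04 and did not pass. No gene is named from these rows.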

How the results depend on the processing

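With a minimum log2 change of 0.5 (limma's treat), 2 of the 9 genes were higher (NQO1 and SQSTM1) and 0 lower, 1 of the 77 further pathway genes was higher and 4 lower, and 145 genes were called over the table against 4349. At that setting TXN, TXNRD1 and NFE2L2, whose changes are below the minimum, lost their calls by construction. SRXN1 and KEAP1, at 0.70 and 0.51, lie above it and did not pass (adjusted p 0.855 and 1). Leaving out 1 array gave 5 to 6 of the 9 genes higher and 0 to 1 lower, 20 to 24 further pathway genes higher and 6 to 7 lower, and 3018 to 3663 genes called. NQO1 and SQSTM1 kept direction and call in all 16 alternatives. The labels do not say whether the replicate number marks a pairing, and 3 arrays per group are too few to settle it. Same-numbered arrays deviated together with r of 0.20, -0.17 and 0.05 for numbers 1, 2 and 3. The highest r with an array of another number was -0.04, 0.18 and 0.28. With the replicate block 5 of the 9 genes were higher and 1 lower, TXNRD1 losing its call (adjusted p 0.0763). That fit called 3641 genes, and BACH1 and BLVRA also lost their calls. The difference of OSGIN1, -0.01 as reported and far from the threshold, changed sign after quantile normalization (0.018), median centring (0.027) and with array weights (0.014), and without DMSO replicate 1 (0.0070), DMSO replicate 3 (0.040), BIX01294 replicate 1 (0.029) or BIX01294 replicate 3 (0.028), in a range of -0.077 to 0.040 over the 6 arrays left out in turn; the cause was not tested. HMOX1 and OSGIN1 fell below the median level and had no value with that filter. With no detection call, signal over background could not be judged.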
